A study of Mus musculus with 10 samples.

Results

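The genes described here are 35 genes of base excision repair, nucleotide excision repair and mismatch repair, with Mgmt, the methyltransferase that reverses alkylation of guanine directly. They were chosen by name and by their place in these pathways, and they are 35 of the 55487 genes in the table. The filter on low counts kept all 35 members and 18956 genes of the whole table, and the lowest count of any member in any ovary was 26.

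RNA was sequenced from 10 ovaries of C57BL/6J mice. The Control group was 4 ovaries of mice aged 8 weeks, and the Aged and Aged+CF groups were 3 ovaries each of mice given as 11 months old in the labels and as 10 months old in the methods text. Aged+CF mice received CEFFE, a cell-free extract of fat tissue, as 200 μL at 3 μg/μL of protein through the tail vein every other day for 2 weeks, and Control and Aged mice received saline. All mice, controls included, received 10 IU of PMSG, a gonadotropin that stimulates follicle growth, 48 h before collection. Each library was its own ovary, and the p-values measure the spread between these ovaries. The whole ovary was used, so cell types were not separated.

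Base excision repair removes small base lesions. A glycosylase cuts out the damaged base, an endonuclease opens the strand at the empty site, and a polymerase and a ligase fill and seal it. Nucleotide excision repair recognizes lesions that bend the helix, opens the DNA around them and cuts out a stretch of the strand. Mismatch repair recognizes mispaired bases left by DNA replication, and an exonuclease then removes the new strand around them. Oocytes stay arrested for long periods before ovulation, and granulosa cells divide as follicles grow, so repair genes of both kinds of cell contribute to RNA of the whole ovary.

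Promoter sequence is shown for the members that fell with a fold of at least 1.5 in Aged ovaries and that matched the RefSeq promoter table (build GRCm38.p6), which holds 28 of the 35 members. The bases are those before the RefSeq start that lie in no annotated exon, 5′ to 3′ on the strand of the gene, and capitals mark GC box letters (GGGCGG on either strand, neighbouring matches joined). Msh6 lies at chr17:87974800-87975049 (plus strand), Neil3 at chr8:53639066-53639315 (minus strand) and Ung at chr5:114130185-114130385 (plus strand).
Msh6: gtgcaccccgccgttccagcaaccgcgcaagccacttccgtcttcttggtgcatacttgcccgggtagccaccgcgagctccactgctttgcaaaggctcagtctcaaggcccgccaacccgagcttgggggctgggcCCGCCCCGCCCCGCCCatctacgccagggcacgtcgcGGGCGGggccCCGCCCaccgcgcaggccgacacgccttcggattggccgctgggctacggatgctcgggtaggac
Neil3: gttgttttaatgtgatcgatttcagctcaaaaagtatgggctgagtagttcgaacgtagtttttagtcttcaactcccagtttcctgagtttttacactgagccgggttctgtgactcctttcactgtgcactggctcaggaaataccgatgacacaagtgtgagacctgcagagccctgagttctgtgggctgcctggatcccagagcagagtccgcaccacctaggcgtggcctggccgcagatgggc
Ung: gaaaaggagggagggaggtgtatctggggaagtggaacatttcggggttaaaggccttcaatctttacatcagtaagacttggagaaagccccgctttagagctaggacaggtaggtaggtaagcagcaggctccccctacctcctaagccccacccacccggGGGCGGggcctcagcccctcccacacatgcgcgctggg
The stretch of Msh6 held 5 GC box matches and a GC content of 70.8%, that of Ung held 1 match and 58.7%, and that of Neil3 held 0 matches and 51.6%. These counts depend on where the stretches end. Neil3 had GC box matches at positions -4 to 1, 28 to 33 and 33 to 38 relative to the start. Ung had another match at -20 to -15, among the 49 bases left out as exon. Across windows from 250 bases before to 50 bases after the start, GGGCGG was found in 20 of 28 members (71.4%) and in 35.9% of 32544 promoters, and CCAAT in 19 members (67.9%) and in 37.4% of promoters. The E2F letters TTTCCCGC or TTTGGCGC were found in Msh3 and Msh6 (7.14%) and in 1.58% of promoters, and the CHR letters TTTGAA in Ercc5 (3.57%) and in 17.8% of promoters. Members were counted by 1 start each, whereas the promoters were all distinct sequences of the RefSeq table, with no filter on expression, so the 2 shares describe unlike sets. Both strands were searched, and such matches describe letters, not binding.

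Total counts per ovary ranged from 15761789 to 21318254. Ovary markers were present in every group, and Aged ovaries 34 and 33 stood apart. Control ovaries held 14 oocyte markers at a summed CPM (read counts scaled to library size, with TMM factors) of 311 to 418, Aged ovaries at 9.81 to 90.1 and Aged+CF ovaries at 118 to 182, and the lowest value was that of Aged 34. In that ovary leukocyte markers summed to 363 CPM, against 68.5 to 127 in the other ovaries. Oviduct markers summed to 388 CPM in Control 33 and 300 CPM in Aged 34, against 1.69 to 32.5 in the others. Aged 33 had the lowest sum of stroma markers, 1256 CPM against 2221 to 4429 in the other ovaries, and the highest sum of luteal and theca markers, 35571 CPM. The quality weights that limma voom gave were 0.276 for Aged 34 and 0.327 for Aged 33, against 0.846 to 2.08 for the others. The spread between ovaries, as a biological coefficient of variation over all genes, was largest among Aged ovaries, at 0.377, against 0.209 in Control and 0.193 in Aged+CF.

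Levels were compared between genes only per length, by the deposited FPKM. Ddb1, the large subunit of the damaged-DNA binding complex and also an adaptor of CUL4 ubiquitin ligases, was highest, at 68.2 ± 0.444 FPKM in Control ovaries (SD, n = 4), at 47.3 ± 1.89 FPKM when Aged (n = 3) and at 61.4 ± 4.21 FPKM with CEFFE (n = 3). Rad23b, a partner of the damage sensor Xpc, came next, at 24.4 ± 2.40, 21.3 ± 0.289 and 23.1 ± 1.05 FPKM in the same order. The ranges of both genes over the 10 ovaries did not overlap. The lowest were Apex2, an endonuclease of the same family as Apex1, at 0.535 ± 0.0383, 0.402 ± 0.0174 and 0.538 ± 0.0293 FPKM, and Pms1, a MutL homologue, at 0.556 ± 0.0435, 0.400 ± 0.0748 and 0.492 ± 0.149 FPKM, and these 2 did not differ beyond their spread. The gene lengths behind the deposited FPKM were 1 to 2.69 times the exon bases in GENCODE M21, so the order of genes with similar FPKM depends on the length used. FPKM carry no TMM factors, which were as low as 0.871 in Aged 33 and as high as 1.05 in Control 33, so they serve to compare genes, not groups. In the fit of Aged vs Control, Apex2 had a log2 fold change of -0.28 (edgeR adjusted p = 0.22) and Rad23b -0.06 (adjusted p = 0.729).

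**Figure D1:**
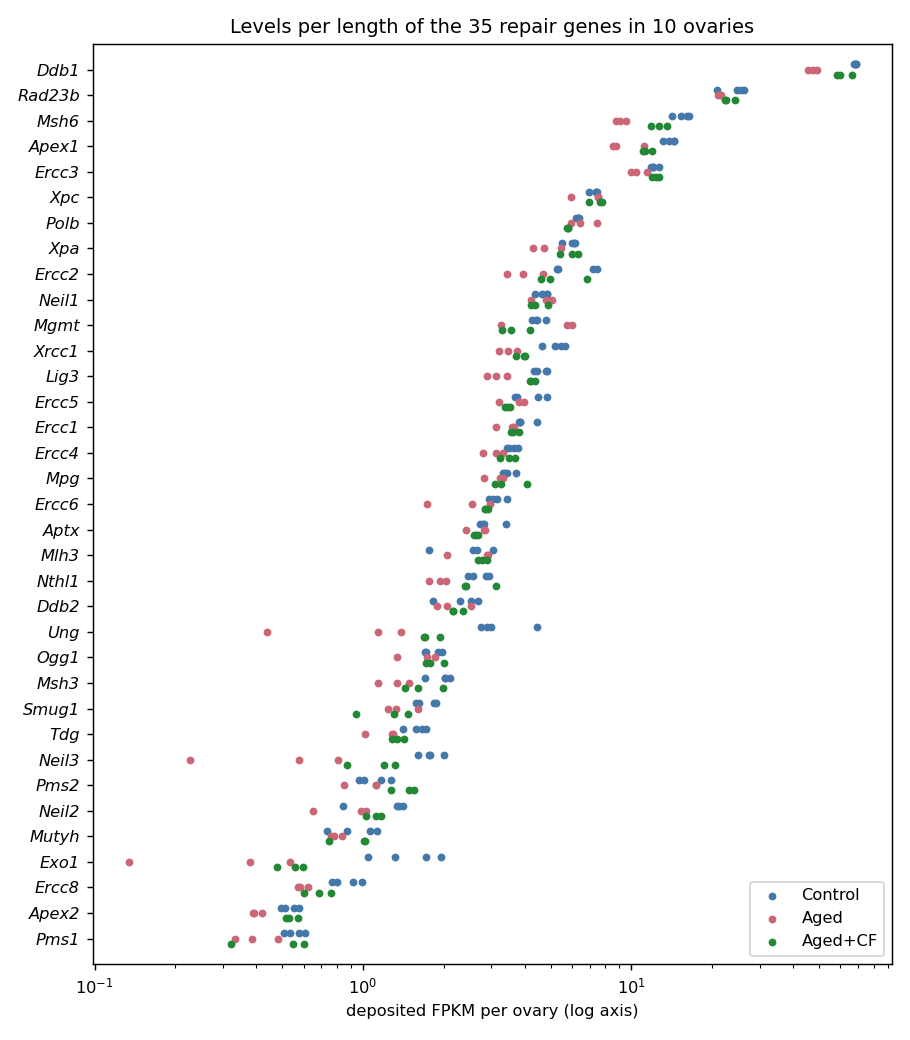
Deposited FPKM (log axis) of the 35 repair genes, ordered by their mean over all ovaries. Each point is an ovary, and colours mark the Control (4 ovaries), Aged (3) and Aged+CF (3) groups. Ddb1 stands highest, and the Aged points of Exo1, Neil3 and Ung lie farthest to the left of the Control points of the same gene.

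Age was compared first. Of the 35 members, 8 fell in Aged relative to Control ovaries and 0 rose at an adjusted p under 0.05 (edgeR quasi-likelihood F test, Benjamini-Hochberg over 18956 genes). That is 22.9% of the members, against 15.4% of all genes called in either direction, 8.3% lower and 7.14% higher. The 8 were the glycosylases Ung and Neil3, the nick-sealing pair Xrcc1 and Lig3, the damage-binding subunit Ddb1, and the mismatch repair genes Msh3, Msh6 and Exo1. A fold of at least 1.5 was reached by 4 of them, Exo1, Neil3, Ung and Msh6 (11.4% of members, against 11.1% of all genes in either direction and 6.06% lower), and the same 4 passed with an unadjusted p and that fold (18.2% of all genes). At an unadjusted p under 0.05 alone there were 12 members, all lower (34.3%, against 31.6% of all genes, 15.9% lower and 15.7% higher). The groups did not overlap in 12 members that were lower and 1, Neil1, that was higher in Aged (37.1%, against 27.5% of all genes, 15.6% lower and 11.8% higher). The log2 fold change was below 0 in 28 members (80%, against 50.1% of all genes), and its median was -0.17, against -0.0005 over all genes. Without Aged 34 the median was -0.05 and 7 members fell while Mgmt rose, a share of 22.9% that was near the 22.3% of all genes called in that fit. Without Aged 33, 8 members were called, all lower (22.9%, against 12% of all genes), with Apex1 in place of Msh3. Without Control 32 the calls were 4 (Exo1, Lig3, Msh6 and Xrcc1), or 11.4% against 7.19% of all genes. Without Aged 31 they were 4 (Lig3, Msh6, Neil3 and Xrcc1), or 11.4% against 11% of all genes. DESeq2's Wald test called 9 members (25.7%, against 22.6% of all genes), limma voom 8 (22.9%, against 23% of all genes), and edgeR on only the groups compared 6 (17.1%, against 9.79%). With a block on the replicate number edgeR called 0 members, so each of the 8 calls was lost, and 0.422% of all genes. The block adds terms estimated from the same ovaries, and Aged+CF 30 is the only ovary with its number. That fit thus has fewer degrees of freedom than the main fit, and whether a batch had a part was not tested.

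Gene positions are given from GENCODE M21 on GRCm38. Among the 10 glycosylases, Ung and Neil3 fell. Ung (chr5:114130386-114139323), which removes uracil from DNA, stood at 25.2, 37.9, 22.9 and 24.5 CPM in Control, at 10.2, 13.9 and 3.80 CPM in Aged and at 16.4, 14.7 and 14.8 CPM in Aged+CF ovaries. All Aged ovaries lay below all Control ovaries, with Aged 34 the lowest, and the Aged+CF ovaries lay between the other groups without overlap. The log2 fold change of Ung in Aged vs Control was -1.57 (SE 0.37, edgeR adjusted p = 0.0207). The call was lost without Control 32 (adjusted p = 0.0561) and without Aged 31 (adjusted p = 0.0534), and also with only the groups compared (adjusted p = 0.0519).

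Neil3 (chr8:53586867-53639065), a glycosylase for oxidized bases that is expressed in dividing cells, stood at 10.2, 13.0, 11.1 and 11.3 CPM in Control, at 5.49, 4.37 and 1.49 CPM in Aged and at 8.49, 5.74 and 7.87 CPM in Aged+CF ovaries. Here too the 3 groups did not overlap, and Aged 34 was lowest. The log2 fold change in Aged vs Control was -1.60 (SE 0.36, edgeR adjusted p = 0.0195), and the call was lost without Control 32 (adjusted p = 0.0536). Nthl1, a glycosylase for oxidized pyrimidines, had -0.37 and missed the call (adjusted p = 0.142). The other 7 glycosylases, Ogg1, Mutyh, Tdg, Neil1, Neil2, Mpg and Smug1, ranged from -0.36 for Neil2 to 0.13 for Neil1 and were not called. Tdg has processed pseudogenes that match it at 98.7% identity or more, so its counts are uncertain.

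Of the 6 genes for end processing and ligation, Xrcc1 and Lig3 fell by smaller folds. Xrcc1 (chr7:24546289-24573440), the scaffold that holds Lig3 at a nick, stood at 48.3, 51.7, 42.6 and 52.5 CPM in Control, at 34.4, 35.6 and 36.0 CPM in Aged and at 37.3, 35.8 and 38.5 CPM in Aged+CF ovaries. Both older groups lay below every Control ovary, and they overlapped each other. Its log2 fold change in Aged vs Control was -0.47 (SE 0.09, edgeR adjusted p = 0.0134).

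Lig3 (chr11:82781108-82804274), the ligase that seals the nick, stood at 70.3, 77.6, 67.8 and 77.4 CPM in Control, at 58.2, 54.7 and 51.4 CPM in Aged and at 70.2, 68.8 and 69.5 CPM in Aged+CF ovaries. The Aged ovaries lay apart below both other groups, and Aged+CF overlapped Control. Its log2 fold change in Aged vs Control was -0.42 (SE 0.08, edgeR adjusted p = 0.0125). Exons of Rffl on the opposite strand cover 25.1% of the exon bases of Lig3, and whether counting used strand is not given in the sources used here. Rffl itself had a log2 fold change of 0.05 (adjusted p = 0.843). Apex1, the main endonuclease at empty sites, had -0.42 and missed the call (adjusted p = 0.0706). Without Aged 33 it was called at -0.59 (adjusted p = 0.0122), and limma voom called it too (adjusted p = 0.00782). Exons of Pip4p1 on the opposite strand cover 61.7% of the exon bases of Apex1. The other members with over 20% shared were Mpg (35.7%, Nprl3), Ercc2 (24.6%, Gm26852) and Ddb2 (23.8%, Acp2), all on the opposite strand. Polb, Aptx and Apex2 ranged from -0.28 to 0.20.

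In nucleotide excision repair, 1 of the 6 damage recognition genes fell and 0 of the 6 genes for opening and incision. Ddb1 (chr19:10605327-10629819) stood at 602, 620, 600.3 and 602 CPM in Control, at 467, 479.9 and 434 CPM in Aged and at 538, 535 and 607 CPM in Aged+CF ovaries. Control ovaries lay within a narrow band, all Aged ovaries lay below it, and Aged+CF 34 lay inside it. The log2 fold change of Ddb1 in Aged vs Control was -0.40 (SE 0.09, edgeR adjusted p = 0.0192), and the call was lost without Control 32, Control 34 or Aged 31 (adjusted p = 0.0547, 0.0526 and 0.0506). Ercc8, which recognizes stalled transcription, had -0.42 (adjusted p = 0.101), and Ercc2, a helicase of the opening complex, had -0.53 (adjusted p = 0.0641), both short of the call, though DESeq2's Wald test called Ercc2 (adjusted p = 0.0392). The rest of the recognition genes, Xpc, Rad23b, Ddb2 and Ercc6, ranged from -0.27 to 0.07, and Xpa, Ercc1, Ercc3, Ercc4 and Ercc5, which open or cut the strand, ranged from -0.17 to -0.06.

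In mismatch repair 3 of the 6 members fell. Exo1 (chr1:175880581-175913489), the exonuclease that removes the strand with the error, stood at 13.6, 18.1, 10.6 and 20.1 CPM in Control, at 4.18, 6.56 and 1.43 CPM in Aged and at 6.25, 5.11 and 5.95 CPM in Aged+CF ovaries. Every older ovary lay below every Control ovary, and the Aged+CF values fell within the Aged range. Its log2 fold change in Aged vs Control was -1.95 (SE 0.43, edgeR adjusted p = 0.0172), the largest of the 35 members, and the call was lost without Aged 31 (adjusted p = 0.0503).

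Msh6 (chr17:87975062-87990892), a MutS subunit that recognizes base mismatches, stood at 67.5, 78.1, 72.2 and 78.2 CPM in Control, at 46.1, 49.6 and 47.0 CPM in Aged and at 61.3, 58.5 and 67.0 CPM in Aged+CF ovaries. The 3 groups did not overlap, and Aged 34 was not the lowest ovary. The log2 fold change of Msh6 in Aged vs Control was -0.64 (SE 0.09, edgeR adjusted p = 0.00497).

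Msh3 (chr13:92211872-92355003), the MutS subunit for small loops, stood at 29.8, 37.5, 35.04 and 35.5 CPM in Control, at 27.8, 23.6 and 24.2 CPM in Aged and at 35.1, 26.1 and 28.9 CPM in Aged+CF ovaries. Aged lay below Control, and Aged+CF overlapped both. Its log2 fold change in Aged vs Control was -0.45 (SE 0.13, edgeR adjusted p = 0.0446), and the call was lost under 12 of 16 other settings. The MutL genes Mlh3, Pms1 and Pms2 ranged from -0.35 to 0.18. Mgmt stood at 12.3, 13.7, 11.8 and 12.5 CPM in Control and at 17.2, 20.04 and 9.48 CPM in Aged ovaries, with Aged 34 below and the other Aged ovaries above Control (log2 fold change 0.31, adjusted p = 0.382).

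**Figure D2:**
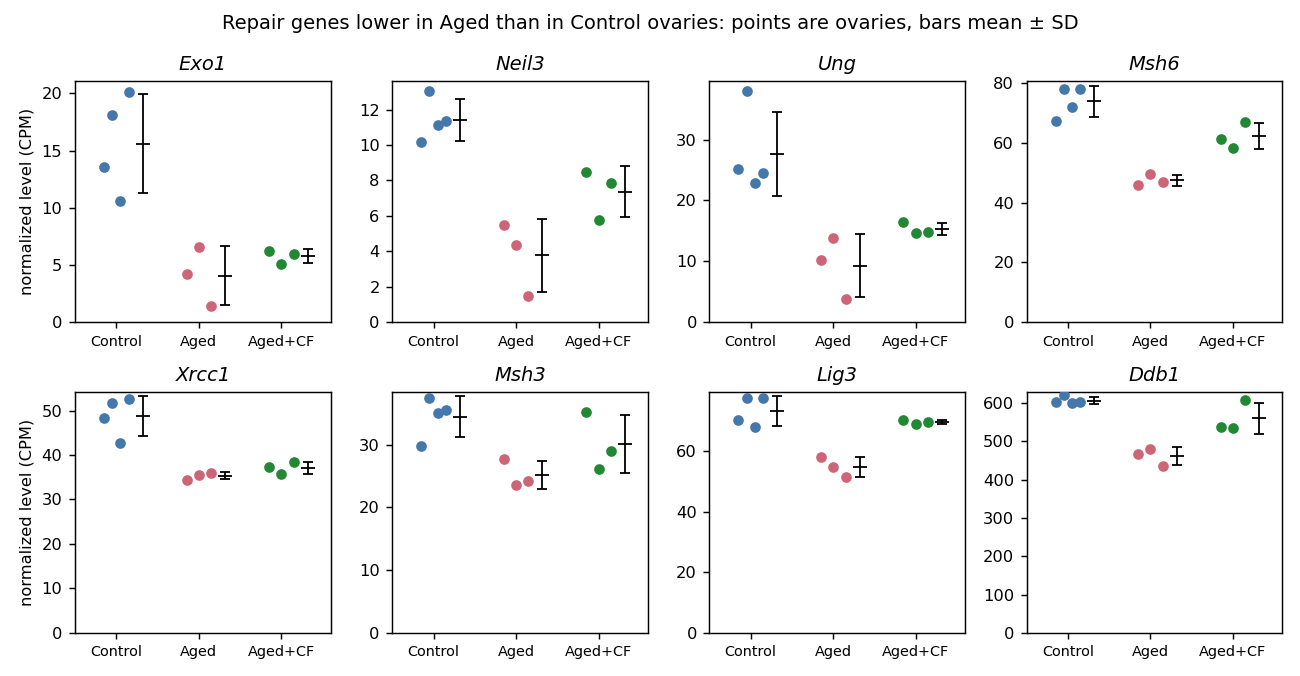
CPM of the 8 members that fell in Aged relative to Control ovaries, with axes from 0. Points are ovaries, and bars are mean ± SD (4 Control, 3 Aged and 3 Aged+CF ovaries). Aged points lie below all Control points in each panel, and the spread in Aged is wide for Exo1, Neil3 and Ung and narrow for Msh6 and Xrcc1.

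Summed markers of oocytes and of dividing cells were also lower in Aged than in Control ovaries. In Aged vs Control 10 of 14 oocyte markers fell, and 9 of 12 dividing-cell markers fell, whose sums were 628 to 884 CPM among Control, 125 to 331 CPM among Aged and 363 to 500.4 CPM among Aged+CF ovaries. Of the markers of luteal and theca cells 6 of 7 rose (6367 to 11525, 15464 to 35571 and 13690 to 21414 CPM), and of leukocyte markers 6 of 7 rose. Of the granulosa markers 1 of 9 fell by the same call, and the median log2 fold change of the 9 was -0.82. Their sums were 4456 to 7431 CPM in Control, 3343 to 3883 CPM in Aged and 2496 to 4269 CPM in Aged+CF ovaries, so Aged lay below Control without overlap. In Aged 34 the dividing-cell sum was 16.9% of the Control mean, and Exo1, Neil3 and Ung were at 9.19%, 13.0% and 13.8% of theirs. Aged 34 was the lowest of all 10 ovaries for 15 of the 35 members. Msh6 and Ddb1 in the same ovary were at 63.6% and 71.7%. In RNA of a whole ovary, fewer cells of a type and less RNA per cell cannot be told apart, and the part of these markers in the results was not tested. Without Aged 34 the log2 fold changes were -1.50 for Exo1, -1.17 for Neil3, -1.16 for Ung and -0.59 for Msh6, all still called (adjusted p = 0.00797, 0.00564, 0.00807 and 0.00489).

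**Figure D3:**
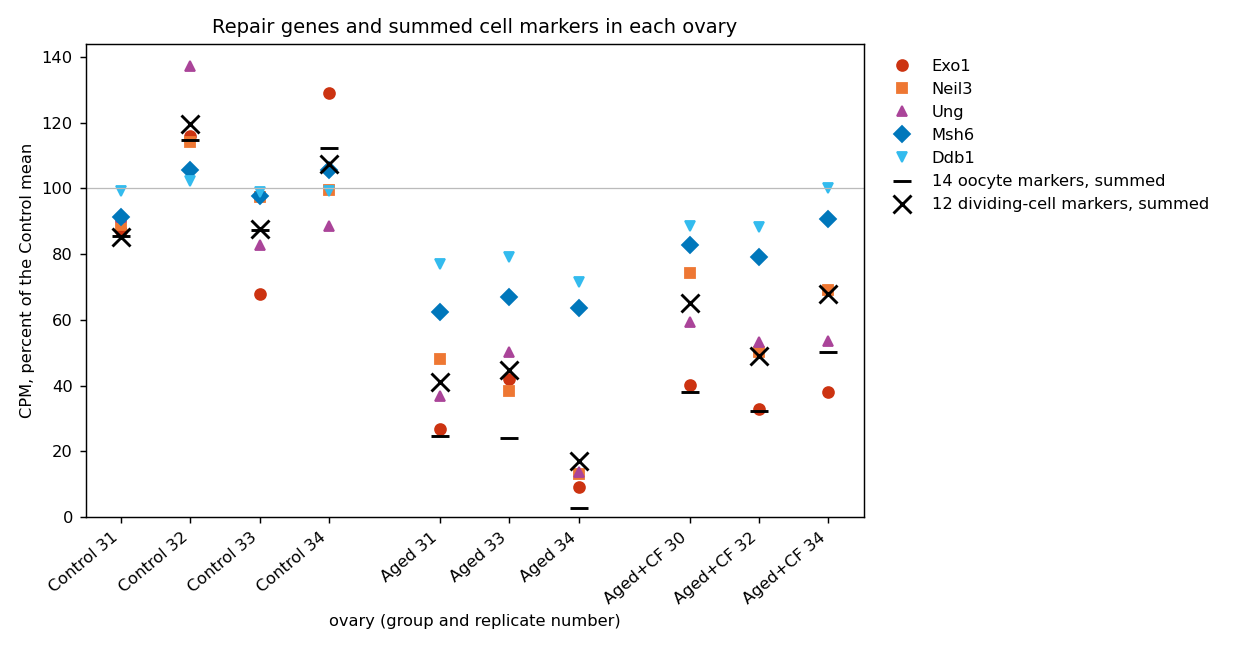
CPM in each ovary as a percent of the Control mean, for 5 repair genes (coloured symbols) and for the summed oocyte and dividing-cell markers (black symbols). In Aged 34 the oocyte sum is at 2.69% and Exo1 at 9.19%, while Msh6 and Ddb1 stay above 60% in every ovary.

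Treatment was compared next, in Aged+CF vs Aged, which shares the Aged ovaries with the first comparison. At an adjusted p under 0.05, 0 of the 35 members were called by edgeR, and 1 of all genes (0.00528%). At an unadjusted p under 0.05 there were 7 members (20%, against 16.3% of all genes, 8.06% higher and 8.27% lower), higher in Aged+CF for Neil3, Nthl1, Lig3, Ddb1 and Msh6 and lower for Polb and Mgmt, and of these Neil3 had a fold of at least 1.5 (7.96% of all genes). DESeq2's Wald test called 3, Ddb1, Lig3 and Msh6, all higher (8.57%, against 4.79% of all genes), and limma voom called 0 (0.554% of all genes). The log2 fold change was above 0 in 26 members and below 0 in 9 (25.7%, against 52.6% of all genes below 0). Its median was 0.12, against -0.02 over all genes, and without Aged 34 the median was 0.04.

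The smallest p among the members was that of Msh6, which had a log2 fold change of 0.39 in Aged+CF vs Aged (SE 0.09, edgeR adjusted p = 0.161). Lig3 had 0.34 (SE 0.09, adjusted p = 0.169) and Ddb1 0.28 (SE 0.10, adjusted p = 0.216). In these 3 genes every Aged+CF ovary lay above every Aged ovary. Neil3 had the largest difference, 0.97 (SE 0.38, adjusted p = 0.259), without overlap, and without Aged 34 it was 0.56 (adjusted p = 0.148). In all, 8 members were higher and 3 lower in Aged+CF without overlap (31.4%, against 18.6% of all genes, 10.2% higher and 8.39% lower).

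Ung and Exo1 had 0.72 (SE 0.38, adjusted p = 0.367) and 0.52 (SE 0.44, adjusted p = 0.579) in Aged+CF vs Aged, and without Aged 34 these were 0.33 and 0.09 (adjusted p = 0.408 and 0.874). Nthl1 had 0.38 (adjusted p = 0.306), and Polb, the polymerase that fills the gap, had -0.30 (adjusted p = 0.293). Mgmt stood at 11.8, 10.3 and 9.56 CPM in Aged+CF ovaries, near Aged 34 and below Aged 31 and 33, with a log2 fold change of -0.56 (adjusted p = 0.288). Without Aged 34 its value was -0.84 (adjusted p = 0.0244), the member called under that setting (2.86%, against 3.36% of all genes).

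In Aged+CF vs Control, 0 of the 35 members were called by edgeR, and 34 of all genes (0.179%). At an unadjusted p under 0.05 there were 6 members (17.1%, against 14.3% of all genes, 7.89% lower and 6.41% higher), and of these Exo1 and Ung had a fold of at least 1.5 (7.69% of all genes). The groups did not overlap in 11 members, 10 of them lower (31.4%, against 21.9% of all genes, 12.2% lower and 9.69% higher). Exo1 had a log2 fold change of -1.43 (SE 0.41, adjusted p = 0.180), Xrcc1 -0.39 (SE 0.09, adjusted p = 0.128), Ung -0.85 (SE 0.35, adjusted p = 0.320) and Msh6 -0.25 (SE 0.09, adjusted p = 0.246), each without overlap. Smug1, a second uracil glycosylase, had -0.45 (adjusted p = 0.315), and Pms2 had 0.41 (adjusted p = 0.303). DESeq2's Wald test and limma voom each called Exo1 and Xrcc1, both lower (5.71%, against 3.88% of all genes by the Wald test and 3.52% by limma voom). Without Aged 34, edgeR called Exo1 (-1.41, adjusted p = 0.0274), 2.86% of the members against 1.96% of all genes. The median over the members was -0.10, against -0.03 over all genes.

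**Figure D4:**
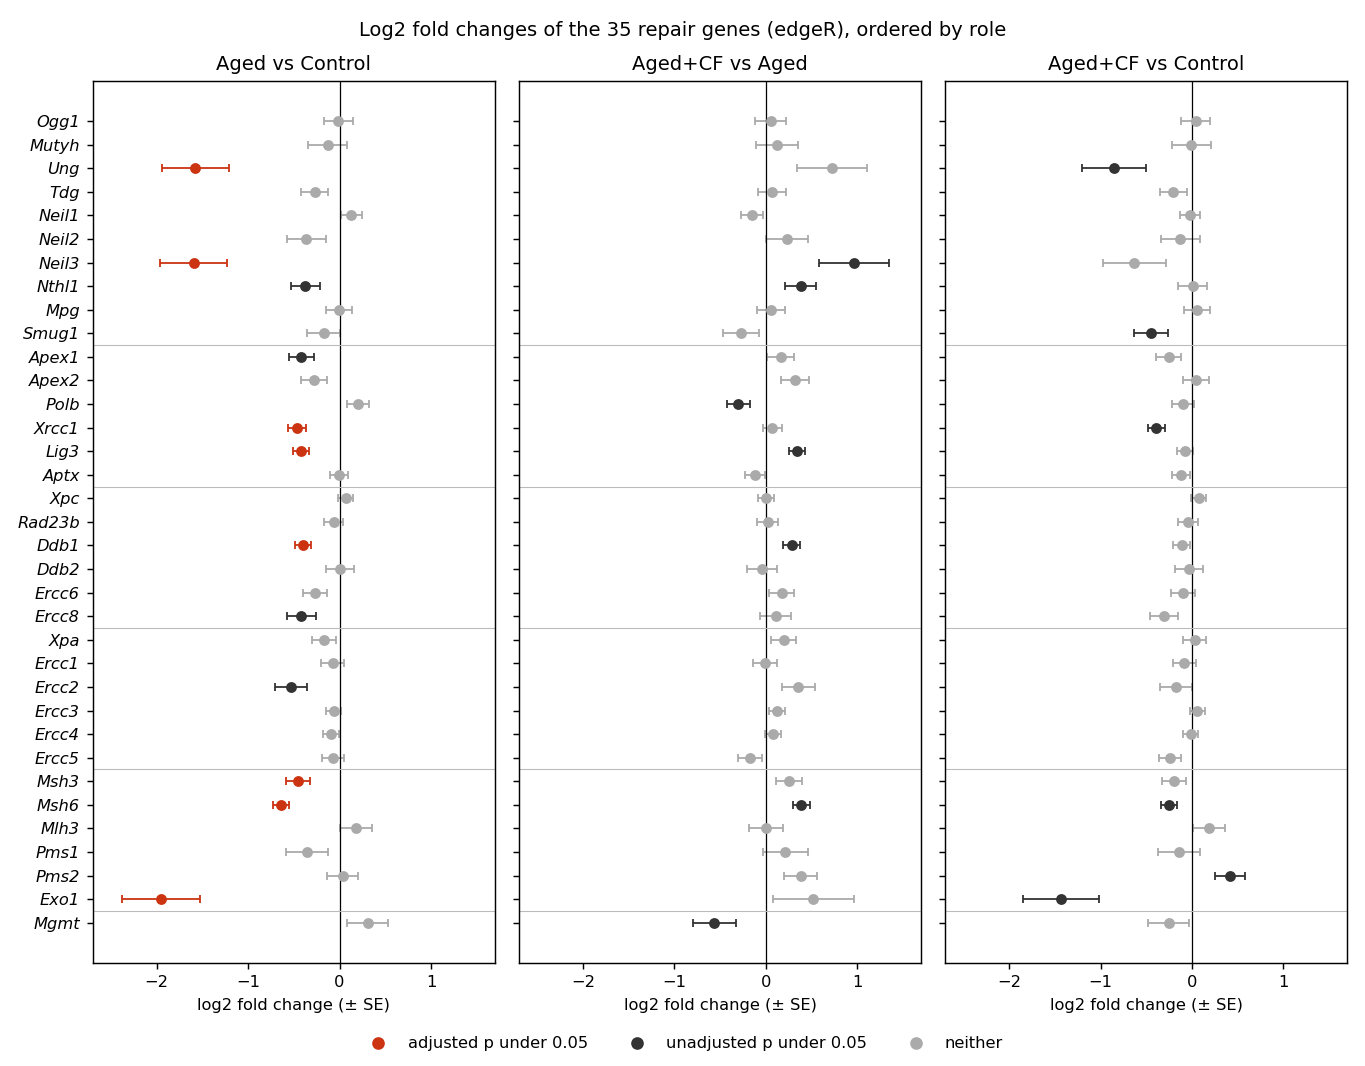
Log2 fold changes ± SE (edgeR) of the 35 members in the 3 comparisons, ordered by role with grey lines between roles. Red points have an adjusted p under 0.05, dark points an unadjusted p under 0.05 and grey points neither. The 8 red points are all in Aged vs Control and left of 0.

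A list of 44 other genes of these pathways, all of them tested, was described in the same fit. In Aged vs Control 8 fell and 2 rose (22.7%, against 15.4% of all genes). Without Control 32, Control 34 or Aged 31, 5 were called in each case (11.4%, against 7.19%, 6.98% and 11% of all genes), and without Control 33, 6 were (13.6%, against 10.4%). The largest falls were Pole, the leading-strand polymerase, at 30.3 ± 4.81 CPM in Control and 9.20 ± 3.27 CPM in Aged ovaries (SD, n = 4 and 3, log2 fold change -1.72, edgeR adjusted p = 0.0064), Lig1, the ligase that joins replication fragments (-1.24, adjusted p = 0.00949), and Pold1, the catalytic subunit of polymerase delta (-1.08, adjusted p = 0.00497). Cetn2, a partner of Xpc, rose by 0.62 (adjusted p = 0.0358) and Pold4, a small subunit of polymerase delta, by 0.56 (adjusted p = 0.0281) on the log2 scale. In Aged+CF vs Aged and in Aged+CF vs Control 0 of the 44 were called by edgeR, with 10 at an unadjusted p under 0.05 in each (22.7%, against 16.3% and 14.3% of all genes). In Aged+CF vs Aged 22 of the 44 lay below 0 (50%, against 52.6% of all genes), with a median log2 fold change of 0.007.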

How the data were processed

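Ovary RNA was sequenced from 4 Control, 3 Aged and 3 Aged+CF mice, and groups were taken from the labels. A single table deposited by the authors held, for each gene and ovary, raw counts of reads and FPKM values. The submitters' processing notes name TopHat, Cufflinks 2.1.1 and GRCm38.p4. The counting tool and its strand setting are not given in the sources used here. In the members, FPKM equalled the count divided by a fixed length and by the total of the counts.

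Counts were analysed with edgeR 4.0 in R 4.3, with filterByExpr, TMM scaling, a mean per group over all 10 ovaries and a two-sided quasi-likelihood F test, adjusted over 18956 genes. CPM are TMM-scaled. Alternatives were DESeq2 1.42, DESeq2 size factors, no filter, only the groups compared, a replicate block, other call rules, leaving out each ovary, and limma 3.58 voom with quality weights, which was chosen after seeing the data. Pairs of libraries in a group differed beyond sampling noise, with chi-square per degree of freedom of 17.3 to 117. All 35 members were found in GENCODE M21, from which overlaps were taken.

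The members and lists were chosen with earlier results of these data known. Members with an unadjusted p under 0.05 were given with values, in full where called in any comparison. The highest and lowest 2 by FPKM were added, and up to 3 other repair genes called in each direction.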

Additional observations from a re-analysis of the deposited data

Results flagged for a closer look

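In the Control group, 4 of the 35 members had an ovary whose gap to its nearest neighbour exceeded Dixon's 95% critical value for 4 samples, and chance alone flags about 1 in 20 groups. Ung was high in Control 32 at 37.9 CPM, against 22.9 to 25.2 CPM in the other Control ovaries. Ddb1 was high in the same ovary at 620 CPM, against 600.3 to 602 CPM, and Ercc1, a subunit of the 5′ incision nuclease, at 20.7 CPM, against 17.3 to 17.6 CPM. Neil2, a glycosylase for oxidized bases, was low in Control 31 at 4.90 CPM, against 7.79 to 8.11 CPM. Control 32 was the highest of all 10 ovaries for 12 of the 35 members. Without Control 32, Ung and Ddb1 missed the call in Aged vs Control (edgeR adjusted p = 0.0561 and 0.0547).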

How the results depend on the processing

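Over 25 gene results and 16 other settings, 359 of 400 values kept their direction and side of the threshold, 27 lost and 14 gained the call, and 0 reversed. Most of the 25 results were not called in the main fit and so could not lose a call. All 27 losses fell on the 8 Aged vs Control calls, with 12 for Msh3 and 4 each for Ung and Ddb1. The causes were not tested. In Aged vs Control the 8 calls became 4 with a fold of at least 1.5, by adjusted or unadjusted p, and 4 to 8 when 1 ovary was left out (4 without Control 32 and 4 without Aged 31). The replicate block, which has fewer degrees of freedom than the main fit, left 0 members and 0 other repair genes, and it called 0.422% of all genes. Deviations from the group means correlated at 0.138, -0.185 and 0.0696 between same-numbered Aged and Control ovaries. With Aged+CF ovaries of the same number the values were -0.0874 (Control 32), 0.153 (Control 34) and -0.0613 (Aged 34). Pairs of ovaries from different groups with different numbers ranged from -0.185 to 0.193. The labels do not say what the numbers mean. With so few ovaries these values cannot decide whether same-numbered ovaries share a batch, which was not tested. The 10 other repair genes became 5 without the filter (11.4%, against 5.49% of all genes) and 6 with only the groups compared (13.6%, against 9.79%). They were 5 to 11 when 1 ovary was left out, with 11 without Aged 34 (25%, against 22.3%). In Aged+CF vs Aged, DESeq2's Wald test called 3 members and 2 other repair genes (8.57% and 4.55%, against 4.79% of all genes). Unadjusted p gave 7 members (20%, against 16.3%) and with the fold 1 (2.86%, against 7.96%). Leaving out 1 ovary gave 0 to 1 for both lists, with 1 in each without Aged 34 (2.86% and 2.27%, against 3.36%). In Aged+CF vs Control, the Wald test called 2 and 1 (5.71% and 2.27%, against 3.88% of all genes). Only the groups compared gave 2 and 3, as did limma voom (5.71% and 6.82%, against 3.21% and 3.52%). Unadjusted p gave 6 members (17.1%, against 14.3%) and with the fold 2 (5.71%, against 7.69%). Leaving out 1 ovary gave 0 to 1 for both lists, with 1 in each without Aged 34 (2.86% and 2.27%, against 1.96%). Medians ranged over left-out ovaries from -0.242 to -0.0498 in Aged vs Control, 0.0415 to 0.154 in Aged+CF vs Aged and -0.117 to -0.0637 in Aged+CF vs Control. The lowest counts were 26 for Exo1 and 27 for Neil3, both in Aged 34.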
